A study of Mus musculus with 12 samples.

Results

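The genes described here are those that KEGG places on its oxidative phosphorylation map, without the genes that are also on its lysosome map. Of 56980 genes in the deposited count matrix, 134 were on the first map, 9 of them were also on the second and were left out, and 125 remained. Of these, 112 are encoded in the nucleus and 13 in the mitochondrial genome (symbols beginning mt-). By complex, 42 belong to complex I, 4 to complex II, 10 to complex III, 29 to complex IV and its assembly, and 17 to complex V. A further 3 are cytochrome c genes, 14 encode subunits of the V-type proton pump, which KEGG draws on the same map, and 6 are other enzymes.

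Oxidative phosphorylation is how mitochondria turn the electrons of food into ATP. Complex I takes electrons from NADH and complex II takes them from succinate; both pass them to coenzyme Q, from which complex III hands them to cytochrome c, and complex IV hands them to oxygen. Complexes I, III and IV pump protons, and complex V, the ATP synthase, uses the proton gradient to make ATP. Complex II is built from nuclear genes alone, while the other complexes combine nuclear subunits with subunits made inside the mitochondrion. The V-type pump is a related machine that works in reverse: it spends ATP to acidify lysosomes and other compartments. The liver depends on the respiratory chain to oxidise fat and amino acids.

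Whole livers of 12 obese mice were sequenced. The mice were males of the ob/ob strain (B6.Cg-Lepob/J, Lep-/-), which make no leptin, overeat and have fatty livers. All mice in both groups carry this mutation, so there is no lean control here. From 8 weeks of age, 6 mice ate a standard protein diet (SPD, 25% of energy as protein) and 6 a low protein diet (LPD, 5%) for 3 weeks, and the comparison asks what protein restriction does to liver metabolism. The title of LPD replicate 1 names the low protein diet, whereas its treatment label names 25% protein; it was kept in LPD, and the effect of counting it as SPD is given with the counts. On the first principal component of log2 CPM it lay at 15.3, beside LPD 3, LPD 4 and LPD 6 (20.7 to 22.5), while SPD livers lay between -32.1 and -24.7.

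Libraries held 19374676 to 23710930 estimated counts. The 13 mt- genes took 4.79% to 6.50% of them. Livers LPD 2 and LPD 5 stand apart from the other LPD livers across the transcriptome. The library codes carry a prefix, SP1 or SP2 for SPD livers and, for LPD livers, LP4 or LP5. No prefix occurs in both diets, so if it stands for a batch, batch and diet cannot be told apart. Levels are given as CPM, counts scaled to library size with TMM factors, by the lowest, median and highest of 6 livers. Differences are log2 fold changes, LPD over SPD, ± SE, from edgeR's quasi-likelihood test with Benjamini-Hochberg adjustment over 13768 genes; calls are at an adjusted p below 0.05.

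Most of the respiratory chain differed little between the diets. Of the 125 genes, 110 had enough counts to test, of which 8 were higher in LPD livers, 22 were lower and 80 were not called. The 15 genes left untested were all nuclear, and 6 of them had no count in any library. Called genes made up 27.3% of those tested, against 39.9% of all tested genes in the transcriptome. Higher calls made up 7.27%, against a background of 20.7%, and lower calls 20.0%, against 19.2%. In 12 of the 110 genes (10.9%) the 6 SPD and 6 LPD livers did not overlap, 2 higher and 10 lower in LPD, against 19.9% of all genes. The V-type pump, which is not part of the respiratory chain, gave 8 of the 22 lower calls and 6 of these 12 genes. In complexes I to V alone, 7 of 94 tested genes were higher (7.45%) and 13 lower (13.8%), and 4 (4.26%) did not overlap. These shares stand against the same shares of all genes. The median log2 fold change was -0.06 over the nuclear genes and -0.21 over the mt- genes, against -0.00059 over all tested genes, where the median absolute value was 0.22.

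The calls depended on which livers were compared. Without LPD 2 and LPD 5, 4 genes were higher and 31 lower, and the nuclear median was -0.14. In that fit 28.2% of the tested genes of the map were called lower, against 15.8% of all tested genes. Calls in either direction made up 31.8%, against 32.5% of all genes. With LPD 1 counted as SPD, 5 were higher and 12 lower, or 15.5% called, against 32.2% of all genes. Among libraries coded SP1 and LP4 there were 3 higher and 16 lower, or 17.4% called, against 25.5% of all genes.

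**Figure D1:**
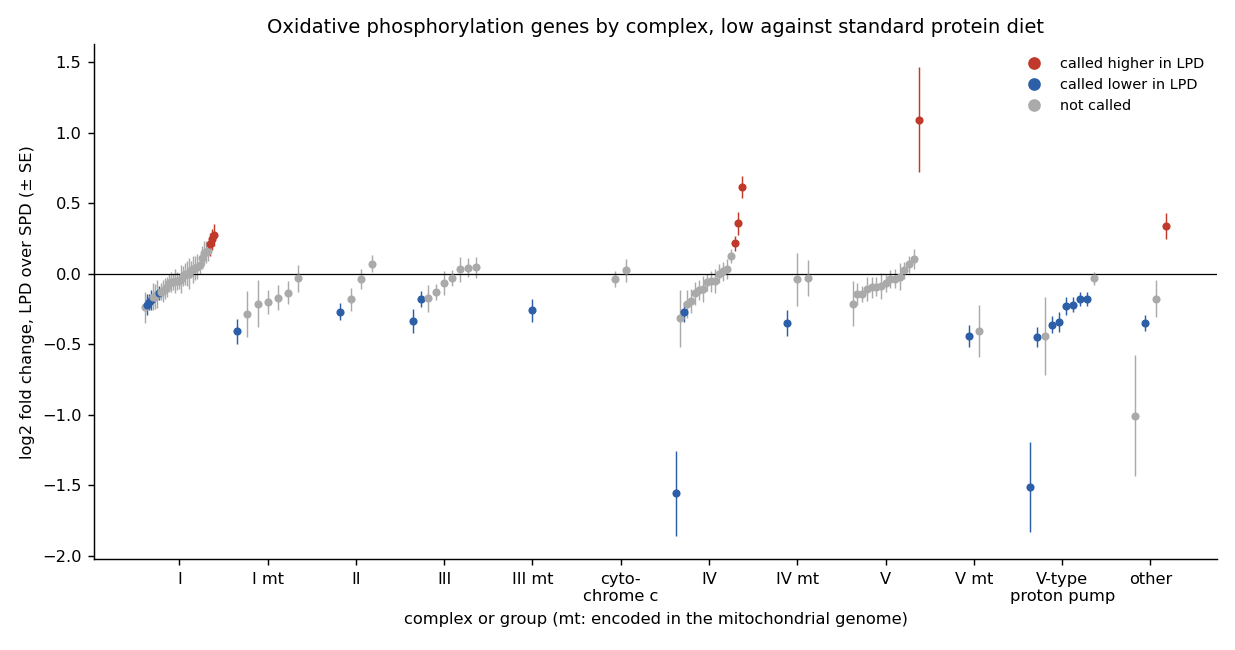
Log2 fold change (LPD over SPD, ± SE, n = 6 livers per diet) of the 110 tested genes, 1 point per gene, by complex and by nuclear or mitochondrial (mt) origin; colour gives the call at an adjusted p under 0.05. Within 0.3 of 0 lie 75 of 81 nuclear genes of complexes I to V, 9 of 13 mt- genes and 5 of 10 V-type pump genes. Below 0 lie 53 of the 81 nuclear genes, all 13 mt- genes and all 10 pump genes. Of the 10 pump genes 8 were called lower, and of the 13 mt- genes 4.

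The mt- genes need a caution about how their reads were assigned. A stretch of chromosome 1 (GRCm38, chr1:24611535-24616197, minus strand) carries 7 annotated pseudogenes that are nuclear copies of mitochondrial DNA. Aligned by BLAST, the copies of mt-Co2, mt-Co3, mt-Atp6 and mt-Nd4l were 100% identical to the mitochondrial gene over 99.0% to 99.9% of its length. In the deposited counts the copy held most of the counts of 4 messages: on average 95.1% of the mt-Co3 counts of LPD livers, 98.0% for mt-Co2, 84.1% for mt-Atp6 and 77.6% for mt-Nd3. The mt-Nd3 gene and its copy Gm28438 differ at a single base (T3C, counted from the first base of the mt-Nd3 transcript), and their first 33 bases are shown 5′ to 3′ with that base in capitals, because they show how little there is to separate the pair.
mt-Nd3: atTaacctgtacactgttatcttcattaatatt
Gm28438: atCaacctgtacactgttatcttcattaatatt

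The copies together held 1.75% to 2.56% of all counts. How the authors treated reads that match several places is not given in the sources used here, and 6 mt- genes had values that were not whole numbers in at least 1 library. The mt- genes are therefore given alone, as deposited, and, where a copy altered the printed fold change, with its counts added. This alternative was chosen after seeing the data.

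Messages of the mitochondrial genome were lower in LPD livers for several complexes. As deposited, 4 of 13 (30.8%) were called lower, against 19.2% of all tested genes, and none higher. In 1 of the 13 (7.69%) the diets did not overlap, against 19.9% of all genes. All 13 fold changes were below 0, and 6 had an unadjusted p under 0.05. With the copies added, 6 were called lower: mt-Nd2, mt-Co1, mt-Atp6, mt-Co3, mt-Nd3 and mt-Cytb. The 13 genes neighbour each other on 1 small genome, are transcribed as long precursors and share libraries, so they are not 13 independent observations.

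Within complex I the mt- genes encode the membrane arm that pumps protons. The mt-Nd2 message stood at 4231, 5240 and 5706 CPM (lowest, median and highest) in SPD livers and at 3304, 3772 and 4352 CPM in LPD livers. The ranges overlapped slightly, and the fall was -0.41 ± 0.09 (edgeR adjusted p = 0.0019). The complex I messages mt-Nd1, mt-Nd4 and mt-Nd5 were not called: the log2 fold change was -0.17 ± 0.09 for mt-Nd1, -0.20 ± 0.08 for mt-Nd4 and -0.13 ± 0.08 for mt-Nd5. For mt-Nd3 it was -0.21 ± 0.16 alone, not called, and -0.27 ± 0.10 with its copy (edgeR adjusted p = 0.044). For mt-Nd4l it was -0.28 ± 0.16 alone and -0.18 ± 0.12 with its copy, and neither was called. The only message on the other strand, mt-Nd6, had -0.03 ± 0.10, and its sign changed when SPD 2 or LPD 1 was left out.

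The electron-carrying core of complex III includes cytochrome b, from mt-Cytb. This message lay at 6606, 8143 and 8411 CPM in SPD livers and at 5993, 6405 and 7713 CPM in LPD livers, a fall of -0.26 ± 0.08 (edgeR adjusted p = 0.021). The lowest SPD liver, SPD 6, lay inside the LPD range, and the other SPD livers lay above it.

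Complex IV takes its catalytic core from mt-Co1, mt-Co2 and mt-Co3. The mt-Co1 message, the most abundant of the 13, ran from 25170 to 31928 CPM in SPD livers, with a median of 30631, and from 20629 to 26515 CPM in LPD livers, with a median of 22620. It fell by 0.35 ± 0.09 on the log2 scale (edgeR adjusted p = 0.0063), with 2 SPD livers inside the LPD range. The calls of mt-Co1 and mt-Cytb were lost when LPD 1 was counted as SPD. For mt-Co3 the deposited values gave -0.03 ± 0.13, not called, and adding the copy gave -0.33 ± 0.09 (edgeR adjusted p = 0.011). With the copy, mt-Co3 lay at 9308, 10489 and 12756 CPM in SPD and 7829, 8400 and 10078 CPM in LPD livers. The mt-Co2 message gave -0.04 ± 0.19 alone and -0.14 ± 0.09 with its copy, and neither was called. As deposited, the signs of mt-Co2 and mt-Co3 changed with single libraries left out.

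In complex V, mt-Atp6 and mt-Atp8 encode parts of the membrane sector through which protons flow. As deposited, mt-Atp6 lay at 837.6, 884.0 and 998.0 CPM in SPD and 571.9, 669.0 and 767.4 CPM in LPD livers, with no overlap, and fell by 0.44 ± 0.08 on the log2 scale (edgeR adjusted p = 3.0e-04). With its copy the fall was 0.34 ± 0.09 on the same scale (edgeR adjusted p = 0.0071), and the ranges, 4320 to 5737 and 3813 to 4829 CPM, overlapped. The overlapping gene mt-Atp8 had -0.41 ± 0.18 and was not called.

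**Figure D2:**
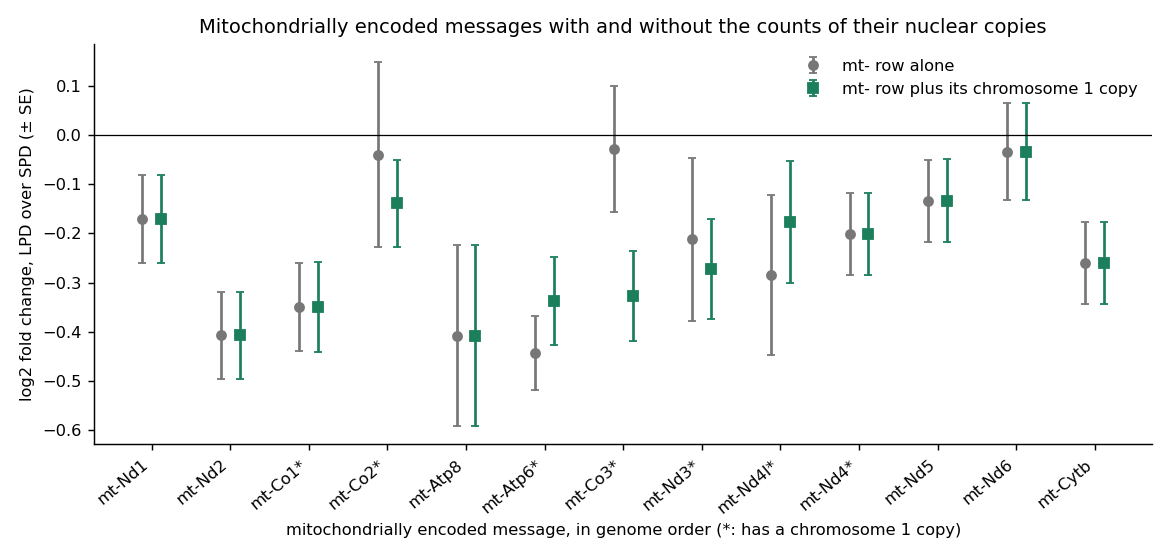
Log2 fold change (LPD over SPD, ± SE, n = 6 livers per diet) of the 13 mitochondrially encoded messages in genome order, from the mt- count alone (circles) and with the count of the chromosome 1 copy added (squares). The messages mt-Co3 and mt-Nd3 are called lower only with their copy, mt-Atp6 is called either way, and genes without a copy do not move.

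Levels between these messages can be compared only per length, and there the copies change the order. On the length-scaled level (counts per kilobase, scaled to the same total in every library), mt-Co1 averaged 34266 in SPD livers, mt-Nd1 13385 and mt-Cytb 12446, while mt-Co3 averaged 973.1 and mt-Co2 379.8. With copies added, mt-Co1 averaged 34394, mt-Co3 24760 and mt-Co2 20420, and mt-Atp6 13954, against 2386 alone. Summed over the 13 genes as deposited, the level was 90826 ± 6127 (SD, n = 6) in SPD and 76586 ± 4074 in LPD livers, a ratio of 0.843, and the diets did not overlap. With the copies it was 151158 ± 10560 and 128221 ± 7196, a ratio of 0.848, and the ranges overlapped. The summed level of the nuclear genes was 22354 ± 1182 in SPD and 21803 ± 591 in LPD livers, a ratio of 0.975.

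Nuclear genes of complexes I to V changed in small numbers and in both directions. Of 89 such genes 81 were tested, 7 were called higher (8.64%) and 9 lower (11.1%), against 20.7% and 19.2% of all tested genes. In either direction 19.8% were called, against 39.9%, and 3 (3.70%) did not overlap between the diets, against 19.9%. The same shares of all genes apply to the counts for each complex below. The median log2 fold change was -0.05, and 75 of the 81 lay within 0.3 of 0. Summed length-scaled levels in LPD livers were 1.01 times those of SPD livers for nuclear complex I, 0.928 for complex II, 0.977 for nuclear complex III and 0.971 each for nuclear complexes IV and V. Without LPD 2 and LPD 5 the balance shifted to lower calls. Nuclear complex I then had 0 higher and 7 lower, complex II 0 and 2, and nuclear complex III 0 and 3. Nuclear complex IV had 3 higher and 4 lower, and nuclear complex V 0 and 3. In that fit 32.5% of all tested genes were called, 15.8% of them as lower in LPD.

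In complex I, 3 of 35 nuclear genes were higher and 4 lower, with a median of -0.05. Ndufb10, an accessory subunit of the membrane arm, lay at 76.1, 87.6 and 94.9 CPM in SPD and 95.2, 98.3 and 120.9 CPM in LPD livers, with no overlap, and rose by 0.27 ± 0.08 (edgeR adjusted p = 0.010). The core subunit Ndufs7, which holds the last iron-sulphur cluster before coenzyme Q, rose by 0.24 ± 0.08 with overlap, and the accessory subunit Ndufb7 by 0.21 ± 0.08. None of these 3 rises was called without LPD 2 and LPD 5. Ndufb10 was also not called in the SP1 and LP4 subset, and Ndufb7 was not called in 17 of 24 alternatives.

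Accessory subunits Ndufa10, Ndufb8 and Ndufs4 fell by 0.19 ± 0.07, 0.22 ± 0.08 and 0.14 ± 0.05 on the log2 scale. Calls of these 3 were lost in 10 to 12 of the 24 alternatives. The electron input subunits Ndufs1 and Ndufv1, which carry electrons from NADH, had -0.05 ± 0.06 in both cases and were not called. Of all complex I genes per length, mt-Nd1 was the highest.

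Complex II, succinate dehydrogenase, also works in the citric acid cycle. Its catalytic subunit Sdha lay at 541, 576 and 623 CPM in SPD and 453, 464 and 526 CPM in LPD livers, without overlap, and fell by 0.27 ± 0.06 on the log2 scale (edgeR adjusted p = 0.0021). The iron-sulphur subunit Sdhb, its partner in the catalytic head, had -0.18 ± 0.08 and was not called, though it was called lower in 4 of 24 alternatives. The membrane anchors Sdhc and Sdhd had 0.07 ± 0.06 and -0.04 ± 0.07, and neither was called. The Sdha call was lost when LPD 1 was counted as SPD (adjusted p = 0.054).

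Among 9 nuclear genes of complex III, 2 were lower and none higher. The Rieske iron-sulphur protein Uqcrfs1 lay at 203.6, 217 and 224 CPM in SPD and 170.1, 188 and 206 CPM in LPD livers, and fell by 0.18 ± 0.06 on the log2 scale (edgeR adjusted p = 0.018). The small subunit Uqcr11 fell by 0.34 ± 0.09 on that scale. Both calls were lost with LPD 1 counted as SPD, and that of Uqcrfs1 also in the SP1 and LP4 subset. Cyc1, the cytochrome c1 that passes electrons on, had 0.05 ± 0.07, and the core proteins Uqcrc1 and Uqcrc2 had -0.13 ± 0.06 and -0.03 ± 0.06; none of these was called. Cycs, the mobile cytochrome c, had -0.04 ± 0.06. Its annotated copy Gm10053 had values that were not whole numbers in all 12 libraries, as did Cycs, so the split between the pair is uncertain; with both added the value was -0.02 ± 0.06.

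**Figure D3:**
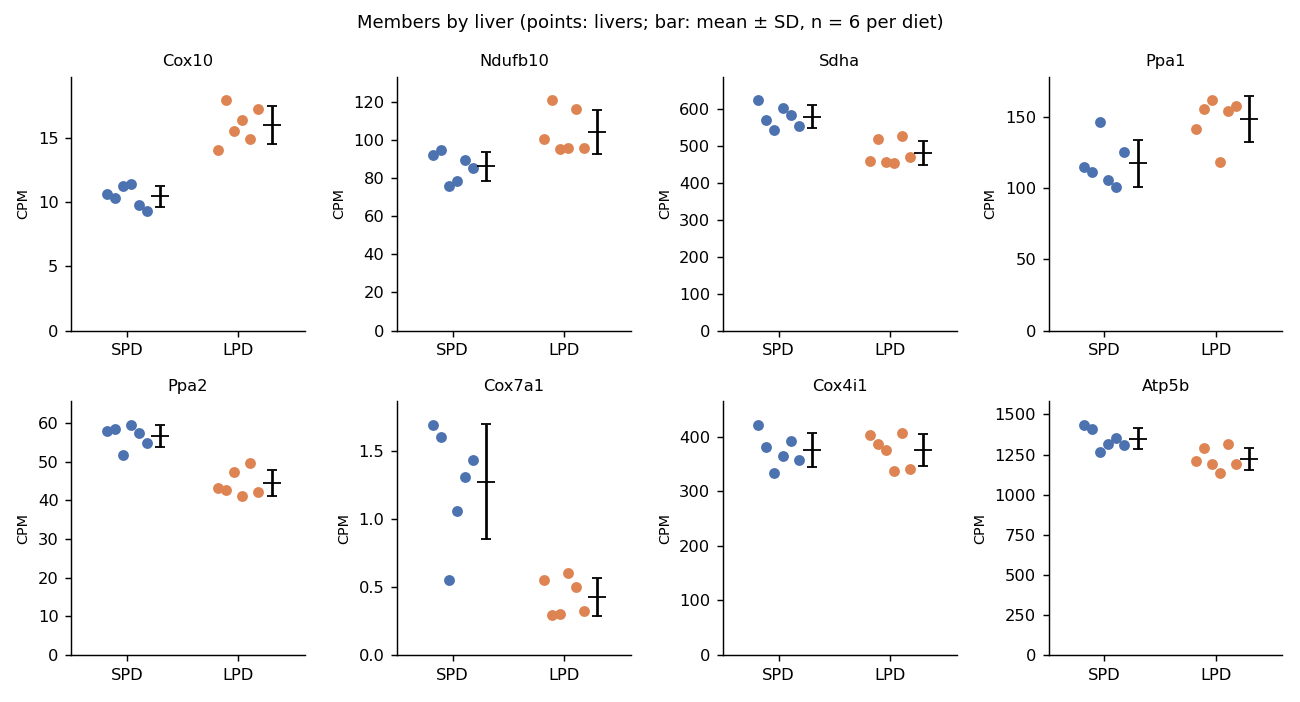
CPM by liver for 8 nuclear genes, with 1 point per liver (6 SPD, 6 LPD) and the mean ± SD beside them; the axes start at 0. Cox10, Ndufb10, Sdha and Ppa2 do not overlap between the diets, Ppa1 and Cox7a1 were called with overlap, and the abundant subunits Cox4i1 and Atp5b were not called.

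Complex IV, cytochrome c oxidase, needs factors that insert its haem and copper. Of the 4 assembly factors among these genes, 2 rose, and of 11 broadly expressed nuclear subunits none rose and 1 fell. Cox10, which adds the farnesyl tail in the making of haem A, lay at 9.33, 10.5 and 11.4 CPM in SPD and 14.0, 15.9 and 17.9 CPM in LPD livers. All LPD livers were above all SPD livers, and the rise of 0.62 ± 0.08, or 1.53-fold, had the smallest adjusted p of all 110 genes (edgeR adjusted p = 2.2e-05). Cox11, which delivers copper, rose by 0.36 ± 0.08 with slight overlap, and was not called in the SP1 and LP4 subset. The deposited values of Cox11 were not whole numbers in all 12 libraries, so its level is uncertain. Cox15, the next enzyme of haem A synthesis, had 0.13 ± 0.05, and the copper chaperone Cox17 had -0.22 ± 0.10, neither called; these genes are named after their values were seen.

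Among the subunits themselves, Cox6b1 fell by 0.27 ± 0.07 on the log2 scale, from a median of 172.5 to 137 CPM, a call lost in the SP1 and LP4 subset and with LPD 1 counted as SPD. Cox4i1, a regulatory subunit that binds ATP, had -0.00039 ± 0.07, with 334 to 422 CPM in SPD and 337 to 406 CPM in LPD livers, and its sign varied with the libraries used. Cox5a, Cox6a1, Cox7a2, Cox8a and Ndufa4 had log2 fold changes from -0.11 to 0.03, and none was called. Cox7a2l, which joins complexes III and IV into supercomplexes, rose by 0.21 ± 0.06, from a median of 109 to 127 CPM, and was not called when LPD 1 was counted as SPD; its values were not whole in 9 libraries.

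Forms of these subunits that belong to muscle or other tissues were barely detected or at low levels. Cox4i2 held 27 counts in all 12 libraries together, Cox6a2 38, Cox6b2 39 and Cox8b 3. Ndufa4l2 held 529 counts, averaged 2.3 CPM in SPD and 1.8 CPM in LPD livers, had -0.32 ± 0.20 and was not called. Cox7a1, the form of heart and skeletal muscle and brown fat, lay at 0.546, 1.37 and 1.69 CPM in SPD and 0.29, 0.411 and 0.6 CPM in LPD livers, and fell by 1.56 ± 0.30 on the log2 scale. Its mean share of the length-scaled level of the pair with Cox7a2 was 1.43% in SPD and 0.516% in LPD livers. All 6 skeletal muscle markers stayed under 0.5 CPM, 2 of them at 0. Of the 5 fat markers Adipoq, Ucp1 and Plin1 did too, with Ucp1 at 0, while Cidea (-1.30 ± 0.20) and Fabp4 (-1.12 ± 0.18) fell; the summed level of the 5 was 95.9 to 173 CPM in SPD and 43.6 to 67.7 CPM in LPD livers. Of the 6 endothelial markers 3 fell, with a summed level of 284 to 341 CPM in SPD and 237 to 277 CPM in LPD livers, and the part of other cells in the Cox7a1 result was not tested.

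With all livers, complex V had 1 of 15 nuclear genes higher and none lower. Without LPD 2 and LPD 5 none was higher and 3 were lower. Atp5b and Atp5a1 form the head that makes ATP. Atp5b lay at 1268, 1334 and 1437 CPM in SPD and 1137, 1200 and 1315 CPM in LPD livers, with -0.14 ± 0.06 and an edgeR adjusted p of 0.061, and Atp5a1 had -0.04 ± 0.07. Atp5b was called lower in 7 of 24 alternatives. The 3 genes Atp5g1, Atp5g2 and Atp5g3 encode the same ring subunit with different import signals. Atp5g3 gave 94.7% of their summed length-scaled level in SPD and 94.1% in LPD livers. The 1 gene called higher was Atp5g2, at a level of 0.0966 to 1.27 CPM in SPD and 1.11 to 2.06 CPM in LPD livers, a rise of 1.09 ± 0.37 on the log2 scale that left its share at 0.725% and was lost in 9 of 24 alternatives. Its deposited values were not whole numbers in all 12 libraries, so its level is uncertain.

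The V-type pump genes moved in 1 direction. Of 14 genes 10 were tested, 8 were called lower and none higher, 6 of the 10 did not overlap between the diets, and the median log2 fold change was -0.29. The summed length-scaled level was 780.9 ± 15.7 (SD, n = 6) in SPD and 657.9 ± 64.4 in LPD livers, with 758 to 803 in SPD and 570.0 to 728 in LPD. Over all tested genes 19.2% were called lower and 19.9% did not overlap. Other subunits of this pump are on the lysosome map and are not included here.

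The catalytic subunit Atp6v1a, which binds ATP, lay at 89.3, 94.7 and 103 CPM in SPD and 65.1, 77.3 and 80.1 CPM in LPD livers, without overlap, and fell by 0.36 ± 0.06 on the log2 scale (edgeR adjusted p = 3.2e-04). Its partner in the head, Atp6v1b2, fell by 0.23 ± 0.07 with overlap. The kidney and inner ear form Atp6v1b1 held 3 counts in all, in 1 library. In the membrane sector, Atp6v0e fell by 0.45 ± 0.07, from a median of 51.1 to 36.1 CPM without overlap, and its paralogue Atp6v0e2 by 1.51 ± 0.32, from a median of 1.40 to 0.59 CPM.

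Several subunits that join head and membrane sector also fell. Atp6v1g1 fell by 0.35 ± 0.07 and Atp6v1f by 0.22 ± 0.05, and Atp6v1c1 and Atp6v1e1 by 0.18 ± 0.05 each on the log2 scale. Atp6v1d, a part of the rotating shaft, had -0.03 ± 0.05 and was not called, and Atp6v1g2, at about 1 CPM, had -0.44 ± 0.27 and was not called. Without LPD 2 and LPD 5, 6 of the 10 were lower, Atp6v1b2 and Atp6v1c1 not being called. In the SP1 and LP4 subset Atp6v1b2, Atp6v1c1, Atp6v1e1 and Atp6v1f were not called, and with LPD 1 counted as SPD Atp6v1c1 was not.

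**Figure D4:**
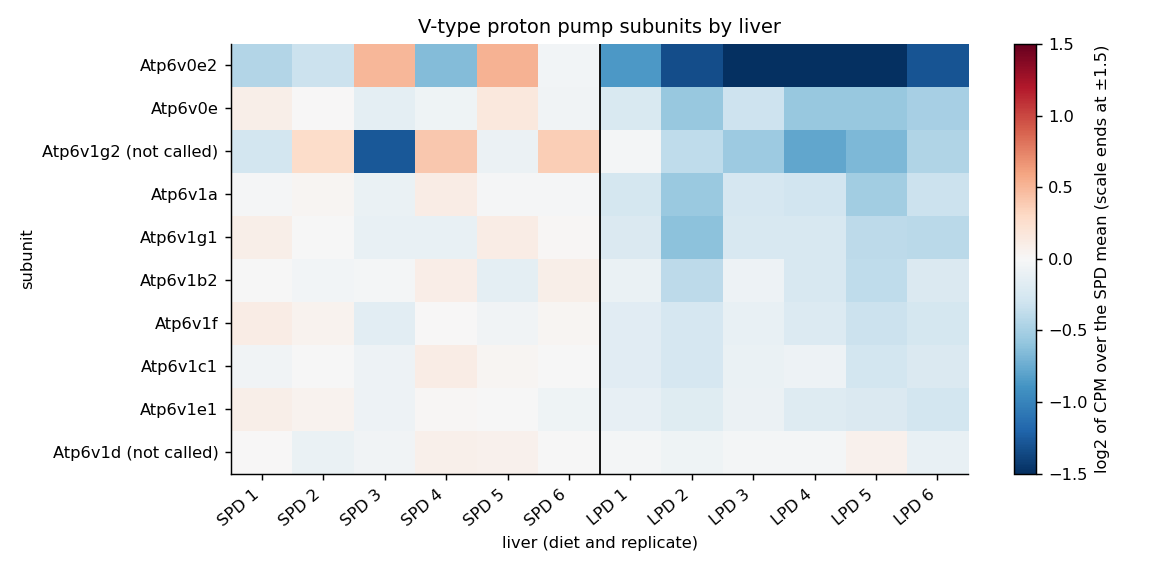
Level of each tested V-type pump subunit in each liver, as log2 of CPM over the SPD mean (colour; the scale ends at ±1.5, and Atp6v0e2 passes its lower end), with SPD livers left of the line and LPD livers right of it. The 8 called subunits are lower across the LPD livers, and Atp6v1d is not.

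Some markers of other liver cells were also lower in LPD livers. Of 11 macrophage markers 4 fell, none rose and 7 were not called, among them the lysosomal protein Cd68 (-0.45 ± 0.12) and the surface protein Cd9 (-1.05 ± 0.11), and their summed level was 852 to 1183 CPM in SPD and 598 to 931 CPM in LPD livers. None of the 11 was at 0, and among those not called Clec4f, a lectin that marks Kupffer cells, had 0.02 ± 0.06. The lowest sum of these markers was in LPD 5, which also had the lowest median of the pump genes. The highest LPD sum was in LPD 4, whose pump median, -0.23, was below those of LPD 1 and LPD 3, both -0.17. Of 8 stellate cell markers 4 fell and 4 were not called, with the lowest sum in LPD 2, and of 8 hepatocyte markers 4 rose and 4 were not called. Of 5 cholangiocyte markers 1 fell and 4 were not called, with a summed level of 156 to 449 CPM in SPD and 43.1 to 117 CPM in LPD livers. Over all tested genes 20.7% were called higher and 19.2% lower. In bulk tissue, fewer cells of a type and less RNA per cell cannot be told apart, and the part of macrophages in the fall of the pump was not tested.

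The other enzymes on the map include the pyrophosphatases, which split the pyrophosphate left by biosynthesis. Ppa1, the cytosolic form, rose by 0.34 ± 0.09, from 101, 113 and 147 CPM in SPD to 119, 155 and 162 CPM in LPD livers, with overlap (edgeR adjusted p = 0.0096), a call lost in the SP1 and LP4 subset. Ppa2, the mitochondrial form, went the other way, from 51.8, 57.7 and 59.6 to 41.2, 43.0 and 49.7 CPM without overlap, a fall of 0.35 ± 0.06 on the log2 scale (edgeR adjusted p = 2.1e-04). Ppa1 made up 64.9 ± 4.1% (SD, n = 6) of the length-scaled level of the pair in SPD and 74.9 ± 1.9% in LPD livers. The gastric proton pump gene Atp4a did not overlap but lay under 1 CPM in every liver, with -1.01 ± 0.43, and was not called; it is named after its values were seen.

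Within each diet the nuclear genes went up and down together between livers. Among 97 tested nuclear genes, 62.9% had their highest SPD level in SPD 1, against 16% of all tested genes. In the LPD group 59.8% had their lowest level in LPD 4, against 15.8%, and 55.7% had their highest in LPD 5, against 17.5% of all genes. On the log2 scale, the median difference of nuclear genes of complexes I to V from their SPD means was 0.14 in SPD 1 and -0.15 in SPD 3. It was 0.07 in LPD 2, 0.10 in LPD 5 and between -0.19 and -0.09 in the other LPD livers. The V-type pump genes showed another order: their lowest medians, -0.33 and -0.38, were in LPD 2 and LPD 5.

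**Figure D5:**
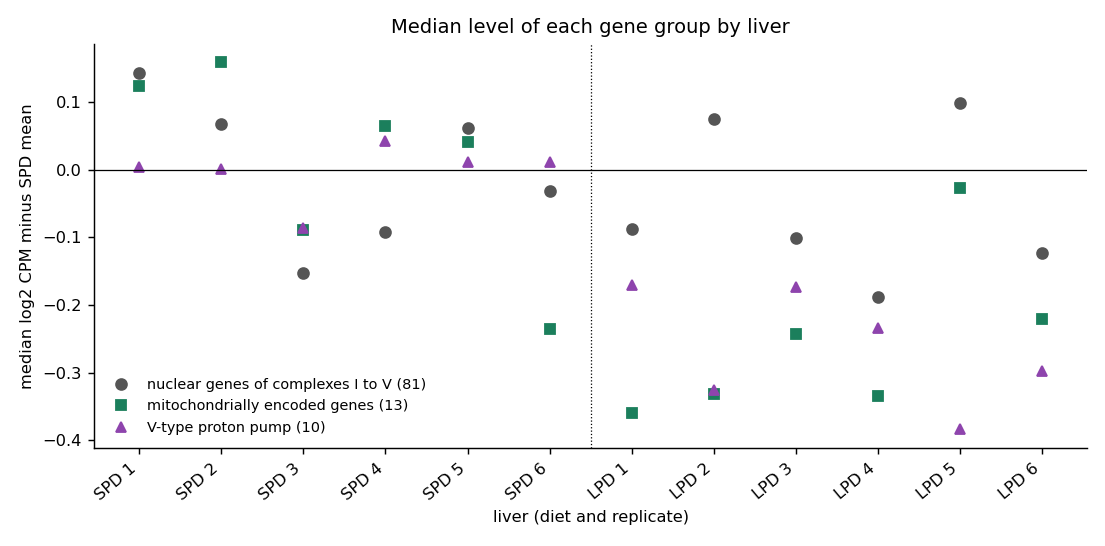
Median, over the genes of a group, of log2 CPM minus the gene's SPD mean in each liver, for nuclear genes of complexes I to V (circles), mt- genes as deposited (squares) and V-type pump genes (triangles), with SPD livers left of the dotted line. The nuclear genes in LPD 2 and LPD 5 sit above the SPD mean while the pump genes there sit lowest.

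Other genes of mitochondrial respiration were followed by lists, none of which includes the genes above. Their counts stand against 20.7% of all tested genes called higher and 19.2% called lower. Assembly factors of complex I gave 5 higher and 2 lower of 15, with a median of 0.03. Ndufaf4 rose by 0.70 ± 0.08, from a median of 28.7 to 47.1 CPM without overlap, and the others that rose were Ecsit, Tmem126b, Tmem186 and Ndufaf8, while Acad9 and Ndufaf6 fell. For complexes II and III, 5 of 11 rose (Hccs, which attaches haem to cytochromes c, Uqcc1, Sdhaf2, Sdhaf1 and Ttc19) and 2 fell (Uqcc2 and Sdhaf4), with a median of 0.17.

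Of 19 further assembly factors of complex IV, 2 rose and 2 fell, with a median of 0.07. The copper carrier Sco2 rose by 0.92 ± 0.13, from 4.24, 5.33 and 6.92 CPM in SPD to 8.70, 10.1 and 12.7 CPM in LPD livers, and Coa7 by 0.38 ± 0.06. Cox19 fell by 0.41 ± 0.06 on the log2 scale and Higd2a fell too. Of 7 further genes of complex V, which are assembly factors, the inhibitor and the small membrane subunits Atp5md and Atp5mpl, none rose and 3 fell, with a median of -0.17. Among them Atpif1, the protein that stops complex V from running backwards, fell by 0.84 ± 0.12 on the log2 scale, from 14.4, 19.4 and 21.8 CPM to 7.35, 10.8 and 12.4 CPM, without overlap (edgeR adjusted p = 7.1e-05). The other 2 were the assembly factor Tmem70 and the subunit Atp5md, which is not among the 15 nuclear complex V genes of the map.

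Electron carriers and the enzymes of coenzyme Q synthesis gave 5 higher and 3 lower of 19, with a median of 0.05. The 3 genes that bring electrons from fat and amino acid oxidation to coenzyme Q rose: Etfdh by 0.27 ± 0.06, Etfb by 0.25 ± 0.07 and Etfa by 0.16 ± 0.06. Coq10a and Dhodh rose as well, whereas Coq8b fell by 0.57 ± 0.08 on the log2 scale, Coq7 by 0.33 ± 0.07 and Coq2 by 0.15 ± 0.06.

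The mitochondrial genome is expressed by nuclear-encoded proteins. Of 31 genes for its transcription, RNA handling and replication, 15 rose and 1, Mterf2, fell, with a median of 0.15. Mterf3, a repressor of mitochondrial transcription, lay at 7.94, 10.1 and 10.7 CPM in SPD and 14.0, 15.4 and 16.4 CPM in LPD livers, and rose by 0.65 ± 0.08 without overlap (edgeR adjusted p = 1.3e-05). Mtpap, which adds poly(A) tails to mitochondrial messages, rose by 0.41 ± 0.07, Fastkd5, needed to process some of their ends, by 0.51 ± 0.09, and the RNA polymerase Polrmt by 0.33 ± 0.09. Tfam, which packs and activates mitochondrial DNA, had 0.13 ± 0.05 with an edgeR adjusted p of 0.055.

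Of 17 regulators of mitochondrial content tested, 9 rose and none fell, with a median of 0.22. Hcfc1, a transcription cofactor, rose by 0.55 ± 0.06, the coactivator Pprc1 by 0.67 ± 0.11 and Nrf1, a factor that binds promoters of many respiratory genes, by 0.58 ± 0.11. Nrf1 lay at 5.34, 7.19 and 7.93 CPM in SPD and 8.69, 10.03 and 12.1 CPM in LPD livers. Esrra rose by 0.25 ± 0.07, and the coactivator Ppargc1a had 0.18 ± 0.15 and was not called. Of 10 genes of ATP and phosphate exchange and uncoupling 1, Vdac3, rose and 3 fell. On the log2 scale Slc25a24, a carrier of ATP, fell by 2.08 ± 0.25 and the uncoupling protein relative Ucp2 by 0.54 ± 0.09. Slc25a4, an exchanger of ADP and ATP, fell by 0.84 ± 0.14, from a mean of 12.4 to 6.89 CPM. Its paralogue Slc25a5 averaged 553 CPM in SPD and 582 CPM in LPD livers, had 0.07 ± 0.06 and was not called.

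Promoter sequences were read for the motifs of factors known to bind respiratory genes. RefSeq promoters (GRCm38.p6, 250 bases before to 50 after the start) were found for 78 of the 97 tested nuclear genes. The NRF1 motif GCGCATGCG was in 12.8% of them, against 3.87% of the 10397 tested genes with a promoter, and its looser form GCGCANGCG in 28.2%, against 14.5%. On both strands alike, the ETS motif CCGGAAG was in 26.9%, against 19.5%, the YY1 motif AAGATGGCG in 8.97%, against 3.47%, and the ERR motif TCAAGGTCA in 2.56%, against 0.317%. The looser NRF1 form contains the stricter one. Of the 8 genes called higher 3 held it, as did 3 of 14 called lower and 16 of 56 not called.

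The promoters of Cox10, which rose most clearly, and of Sdha, which fell, are printed 5′ to 3′ on the gene's strand, here the minus strand for both, with motif letters in capitals. Cox10 (chr11:64079423-64079722) has the ETS letters 27 bases before the start and the YY1 letters 21 bases after it. Sdha (chr13:74350191-74350490) has the looser NRF1 letters at 3 places, 98, 55 and 10 bases before the start. A match describes these letters and not a bound site.
Cox10: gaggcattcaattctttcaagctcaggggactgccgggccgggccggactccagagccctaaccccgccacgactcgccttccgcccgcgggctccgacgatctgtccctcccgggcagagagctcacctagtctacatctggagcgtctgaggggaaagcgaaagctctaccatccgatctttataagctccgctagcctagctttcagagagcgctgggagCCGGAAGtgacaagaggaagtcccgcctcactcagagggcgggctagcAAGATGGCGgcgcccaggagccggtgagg
Sdha: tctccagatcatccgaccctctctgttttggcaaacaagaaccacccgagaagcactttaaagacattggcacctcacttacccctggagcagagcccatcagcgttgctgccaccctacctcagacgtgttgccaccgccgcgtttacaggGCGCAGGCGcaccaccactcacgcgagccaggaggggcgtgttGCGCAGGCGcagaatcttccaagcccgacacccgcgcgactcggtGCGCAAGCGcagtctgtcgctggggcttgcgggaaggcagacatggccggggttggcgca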

How the data were processed

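Livers of 12 mice were profiled by bulk RNA sequencing. The authors deposited expected counts per gene (estimates, not scaled between libraries) with a gene length column. TopHat, DESeq2 and the mm10 build are named in the submitters' processing notes, without version or role; how reads were counted (program, annotation, strand, reads matching several places) is not given in the sources used here. Between 17.1% and 18.9% of a library's nonzero values were not whole.

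After rounding, these counts were fitted by edgeR 4.0.16 (R 4.3.3): filterByExpr (minimum count 10, minimum total 15), TMM scaling, the quasi-likelihood test of diet with no further term, and Benjamini-Hochberg adjustment over all 13768 tested genes. Each SE was obtained from the fold change and its F statistic, as |log2 fold change| over the root of F. Simulated data for LPD against SPD held 13633 genes, 13435 of them unchanged. In them 32.7% of 1.25-fold, 67.3% of 1.5-fold and 78.0% of 2-fold changes were recovered. In the real data 39.9% of tested genes were called, so these rates need not hold for the members. Coordinates are from GENCODE M21 (GRCm38); copies of mt- genes were sought by BLAST of its transcripts (at least 90% identity over 200 bases). Alternatives used DESeq2 1.42.0, limma 3.58.1 (voom with sample weights), other scalings and filters, a replicate block, and subsets of libraries.

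The members and lists were chosen with earlier results of these data known. Named are every called member, the member of each complex with the highest length-scaled level, a fixed set of core subunits, isoforms and the 13 mt- genes, and of each list up to 3 called genes with the smallest adjusted p plus Tfam, Polrmt, Ppargc1a, Nrf1, Esrra and Cycs. Other genes of lists were named after their values were seen. A called member is counted but not reported here.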

Additional observations from a re-analysis of the deposited data

Results flagged for a closer look

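Among 126 sets of 6 livers tested, 4 held a liver whose gap to its nearest neighbour exceeded Dixon's critical value as a share of the group's range, and about 1 in 20 sets is expected to do so by chance. SPD 6 was lowest for mt-Cytb at 6606 CPM, with the next at 7775. SPD 3 was lowest for Gm10053 at 61.7 CPM, with the next at 81.3, and the values of Gm10053, an annotated copy of Cycs, were not whole numbers in all 12 libraries. SPD 4 was lowest for mt-Co2 at 90.3 CPM, with the next at 149.6, on the small share of reads that its chromosome 1 copy leaves. SPD 6 was highest for Cox6b2 at 0.543 CPM, with the next at 0.228, a level of few counts.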

How the results depend on the processing

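Over 24 alternatives, 1 of them (counts of copies added) chosen after seeing the data, no called member turned its direction. Members called higher, 8, became 4 without LPD 2 and LPD 5, 3 in the SP1 and LP4 libraries and 5 with LPD 1 counted as SPD. Members called lower, 22, became 12, and mt- members called lower, 4, became 2 when LPD 1 joined SPD. Within libraries coded SP1 and LP4 the number of all genes called higher in LPD, 2850, became 1827, and of all genes called lower in LPD, 2646, became 1693. With 1 library left out, members called ranged from 6 to 10 higher and from 19 to 31 lower, and mt- members from 4 to 6 lower; all genes ranged from 2555 to 2803 higher and from 2391 to 2653 lower. Limma-voom gave 7 higher and 31 lower. Some uncalled named members were called lower in alternatives: Atp5b in 7 of 24, mt-Nd4 in 6, Sdhb in 4 and Uqcrc1 in 3. Atp5g3, mt-Nd3 and mt-Atp8 were called lower in 2 each, and mt-Nd4l and mt-Co3 in 1 each.

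Signs turned only for uncalled members: mt-Nd6 0.0308 with LPD 1 as SPD, Cyc1 -0.000939 with limma-voom and -0.0299 without LPD 2 and LPD 5, Gm10053 -0.0205 and -0.0323, Cox8a -0.00571 and -0.0317 under the same 2 alternatives, Cox4i1 0.00492 without a filter and 0.00135 in SP1 and LP4 libraries. With 1 library left out, log2 fold changes ranged across 0 from -0.0845 to 0.0346 for mt-Nd6, -0.0586 to 0.00299 for Uqcrc2, -0.0379 to 0.0692 for Gm10053, -0.215 to 0.033 for mt-Co2, -0.127 to 0.0243 for mt-Co3, -0.0298 to 0.0369 for Cox4i1, -0.00197 to 0.0724 for Cox8a and -0.0885 to 0.00599 for Ndufa4. The causes were not tested.

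The replicate block gave 9 higher and 23 lower members; same-numbered livers correlated at -0.05 to 0.10, so the numbers are not taken to pair the mice. The effect of depth on genes at about 1 CPM was not tested.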
